A study of Mus musculus with 12 samples.

Results

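The genes described here encode 10 proteins of the podocyte slit diaphragm and podocyte membrane, Nphs1, Kirrel, Cd2ap, Magi2, Trpc6, Plce1, Thsd7a, Ptpro, Podxl and Robo2. They were found by symbol among probe sets that the platform annotation assigns to exactly 1 gene, and of several probe sets for a gene the one brightest on average over the 12 arrays was used. Of the 10 genes 9 had such a probe set, out of 18193 genes on the array with one, and all 9 passed the filter on low signals together with 11920 genes in all. Magi2, a scaffold protein that binds nephrin, had none and was not analysed here.

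Glomeruli came from female mice aged 8 to 10 weeks of the strains 129S2SvPAs (spelled 129S2SvPAS for its controls) and C57BL6J, in 4 groups of 3 mice with 1 array per mouse. The groups were 129S2SvPAs anti-GBM GN, 129S2SvPAs control, C57BL6J anti-GBM GN and C57BL6J control. Anti-GBM glomerulonephritis (anti-GBM GN) was induced with nephrotoxic serum, which carries antibody against the glomerular basement membrane, on days 0, 1 and 2, and tissue was taken on day 4, the day the labels also give for the controls. What the controls received was not given in the sources used here. Glomeruli were collected on sieves of 100 and 45 µm, so each sample held podocytes together with endothelial, mesangial and other cells, and fewer podocytes cannot be told apart from less RNA per podocyte in any result below.

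Podocytes wrap the outer side of glomerular capillaries with interlocking foot processes. The gaps between these are bridged by the slit diaphragm, in which the extracellular parts of nephrin and its NEPH relatives meet across the slit while adaptors inside the cell tie them to actin. Loss of nephrin causes heavy proteinuria in humans and mice, and injured podocytes typically lose their foot process pattern. Above the slit, the apical membrane carries podocalyxin, a negatively charged sialomucin that keeps neighbouring processes apart.

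Markers of the cells a glomerulus holds were looked up, which shows their presence but cannot test how pure the glomeruli were. The podocyte genes Wt1 and Synpo reached group means of 4.68 to 7.22 and 8.70 to 10.27, the endothelial gene Pecam1 6.81 to 9.71 and the mesangial gene Pdgfrb 7.93 to 9.13 log2 units, against a median of 3.03 over the whole table. Tubule transcripts were bright in every group as well, with means of 12.14 to 12.56 for Slc34a1 of the proximal tubule and 13.48 to 13.83 for Umod of the loop of Henle. One array, replicate 1 of 129S2SvPAs anti-GBM GN, was less like its group, with Pearson's r of at most 0.974 to the other arrays of its group across genes, where those correlated at 0.994. All values are log2 probe set signals, in which a difference of 1 is a factor of 2, and levels are compared between groups and not between genes. Signals near 3 lie on the floor of the table, and differences that reach it are understated.

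Promoters of the genes that changed with anti-GBM GN are shown where RefSeq's table (GRCm38.p6) holds one, to place the nephritis results beside their sequence. Nphs1 (chr7:30459808-30460107, plus strand), Kirrel (chr3:87174488-87174787, minus strand) and Thsd7a (chr6:12749204-12749503, minus strand) are given 5′ to 3′ from 250 bases before to 50 bases after the annotated start. Capitals mark matches, searched on both strands, to the CCAAT box, to TATAAA of the TATA box, to the homeodomain core TAATTA or to GCGNGGGCG, which EGR1 and WT1 bind. No matches overlapped.
Nphs1: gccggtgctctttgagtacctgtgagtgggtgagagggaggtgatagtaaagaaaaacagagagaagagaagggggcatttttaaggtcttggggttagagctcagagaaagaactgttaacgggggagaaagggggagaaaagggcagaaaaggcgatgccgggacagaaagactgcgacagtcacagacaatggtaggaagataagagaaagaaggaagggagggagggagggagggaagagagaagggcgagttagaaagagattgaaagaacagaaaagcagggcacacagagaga
Kirrel: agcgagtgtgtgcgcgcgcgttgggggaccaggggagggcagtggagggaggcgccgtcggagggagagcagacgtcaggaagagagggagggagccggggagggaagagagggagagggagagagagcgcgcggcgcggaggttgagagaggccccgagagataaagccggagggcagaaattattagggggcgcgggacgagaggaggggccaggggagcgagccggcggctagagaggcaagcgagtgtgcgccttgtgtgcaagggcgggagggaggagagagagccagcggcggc
Thsd7a: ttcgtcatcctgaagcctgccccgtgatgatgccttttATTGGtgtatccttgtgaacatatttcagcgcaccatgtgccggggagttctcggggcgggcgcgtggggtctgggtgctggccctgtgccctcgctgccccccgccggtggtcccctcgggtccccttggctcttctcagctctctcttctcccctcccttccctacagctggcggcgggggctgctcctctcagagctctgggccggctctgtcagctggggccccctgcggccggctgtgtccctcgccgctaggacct
The Nphs1 window had 49.7% G and C, against 69.3% for Kirrel, 66.7% for Thsd7a and a median of 52.7% over 32851 promoters. The only match was a CCAAT on the opposite strand in Thsd7a, a motif that 37.4% of all promoters held. TATAAA was found in 13.6%, GCGNGGGCG in 5.55% and TAATTA in 5.29% of them. Sequences were matched for 9 of the 10 genes. Podxl, which also changed with anti-GBM GN, had no promoter among those used and is not shown.

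In 129S2SvPAs glomeruli with anti-GBM GN the nephrin transcript was 3.21-fold lower than in control, and those of its binding partner NEPH1 and of podocalyxin were 1.82-fold and 2.26-fold higher. In C57BL6J glomeruli NEPH1 rose 2.10-fold and Thsd7a fell 3.57-fold. Among nephritic mice 3 of the 9 genes were lower in 129S2SvPAs than in C57BL6J, where 8.38% of all tested genes differed. In control glomeruli 6 of the 9 genes were lower in 129S2SvPAs than in C57BL6J, by 2.35-fold to 4.14-fold, and none passed as higher, where 8.43% of all tested genes differed between control strains. The plot of signals by array shows all 9 genes.

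**Figure D1:**
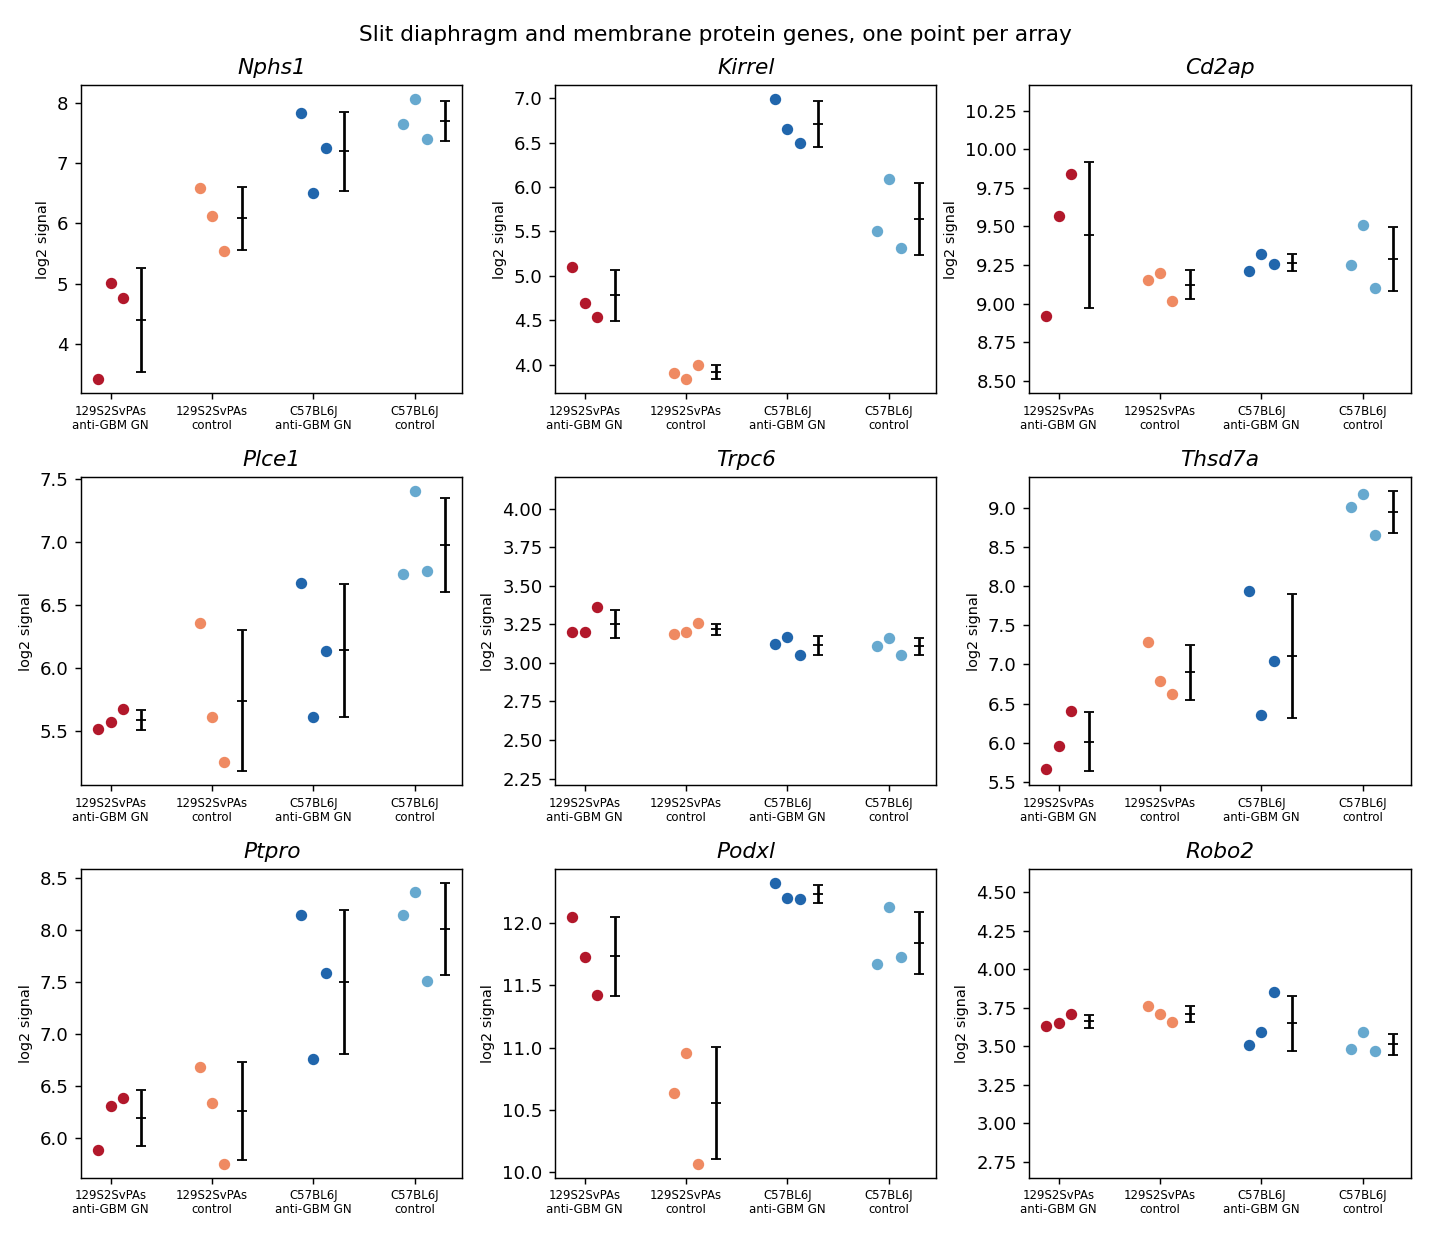
Log2 signals of the 9 measured genes, 1 panel per gene, with 1 point per array in replicate order from left to right and a bar for mean ± SD (n = 3) in each strain and treatment group. Vertical axes differ between panels and span at least 2 log2 units. Nphs1 was lowest in 129S2SvPAs anti-GBM GN (3.42 to 5.01), while Podxl and Kirrel stood above their controls in both strains.

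Nphs1 encodes nephrin, the immunoglobulin-like protein that spans the slit. Its log2 signal was 3.42, 5.01 and 4.77 in 129S2SvPAs anti-GBM GN, against 6.58, 6.12 and 5.55 in 129S2SvPAs control. In C57BL6J it was 7.82, 6.51 and 7.25 in anti-GBM GN and 7.64, 8.06 and 7.40 in control. The 129S2SvPAs groups did not overlap, and their lowest array, replicate 1 of anti-GBM GN, lay close to the floor. The C57BL6J groups overlapped, and every C57BL6J array but replicate 2 of anti-GBM GN exceeded all 129S2SvPAs arrays. That one array, at 6.51, lay just below replicate 1 of 129S2SvPAs control.

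The change in Nphs1 with anti-GBM GN was -1.68 in 129S2SvPAs (SE 0.45, adjusted p = 0.0218 in limma). In C57BL6J it was -0.51 (SE 0.45, adjusted p = 0.59), with a 95% interval from -1.49 to 0.48. The difference between the responses was -1.18 (95% interval -2.57 to 0.22, adjusted p = 0.556 in limma), so the responses were not shown to differ. The 129S2SvPAs call was lost without anti-GBM GN replicate 1 of that strain (-1.19, adjusted p = 0.0513 in limma), without its control replicate 1 (adjusted p = 0.081) and without its control replicate 2 (adjusted p = 0.0549). In a fit of the compared groups alone the adjusted p was 0.0772, and with no filter on low signals it was 0.0567.

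Between strains Nphs1 was 6.93-fold lower in 129S2SvPAs among nephritic mice (-2.79, SE 0.45, adjusted p = 0.00308 in limma), a call kept with each of the 12 arrays left out in turn. Among controls the difference was -1.62 (SE 0.45, adjusted p = 0.0493 in limma), close to the threshold. It was no longer called after leaving out any 1 of the 6 control arrays, 129S2SvPAs anti-GBM GN replicate 3 or C57BL6J anti-GBM GN replicate 3. Across all 12 single omissions it ran from -1.87 to -1.35, and the adjusted p from 0.0162 to 0.184. The call was also lost in 5 of 11 other settings. Among these the adjusted p in limma was 0.0609 with quantile normalization and 0.0508 with each array shifted to a common median. It was 0.102 with no filter on low signals and 0.0773 with the replicate number as a block. Nphs1 was measured by 1 probe set.

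Kirrel encodes NEPH1, which binds nephrin and signals to actin. In 129S2SvPAs it had 5.10, 4.70 and 4.54 in anti-GBM GN, against 3.91, 3.84 and 4.00 in control. C57BL6J glomeruli had 6.99, 6.65 and 6.49 in anti-GBM GN and 5.51, 6.09 and 5.31 in control. Neither pair overlapped, and every C57BL6J array was above every 129S2SvPAs array, controls included. The 129S2SvPAs controls lay little above the floor, so differences against them may be understated. Anti-GBM GN raised Kirrel by 0.86 in 129S2SvPAs (SE 0.21, adjusted p = 0.0162 in limma) and by 1.07 in C57BL6J (SE 0.21, adjusted p = 0.0126). The responses differed by -0.21, with a 95% interval from -0.88 to 0.46 (adjusted p = 0.884 in limma).

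The strain difference in Kirrel was -1.93 in anti-GBM GN (SE 0.21, adjusted p = 0.000305 in limma) and -1.72 in controls (SE 0.21, adjusted p = 0.000628), that is 3.81-fold and 3.29-fold lower in 129S2SvPAs. Both strain calls were kept with every array left out in turn and in all 11 other settings. None of these settings draws on a second Kirrel probe set above the table median. Whether the strains differ in sequence under the probes was not tested, for Kirrel or for the other genes. The C57BL6J response was lost without anti-GBM GN replicate 1 of that strain (0.93, adjusted p = 0.0546 in limma), without its control replicate 1 (1.01, adjusted p = 0.0571) and without its control replicate 3 (0.91, adjusted p = 0.0546). Its second probe set lay below the table median on all arrays (2.49 to 2.61) and could not serve as a check.

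Cd2ap, the adaptor that links nephrin to the actin cytoskeleton, differed little on its brightest probe set. It had 8.92, 9.57 and 9.84 in 129S2SvPAs anti-GBM GN, against 9.15, 9.20 and 9.02 in 129S2SvPAs control. In C57BL6J the values were 9.21, 9.32 and 9.26 in anti-GBM GN and 9.25, 9.51 and 9.10 in control. The groups overlapped in both strains, and the scatter in 129S2SvPAs anti-GBM GN came from its low replicate 1. The change was 0.32 in 129S2SvPAs (95% interval -0.13 to 0.77, adjusted p = 0.312 in limma) and -0.02 in C57BL6J (95% interval -0.47 to 0.42, adjusted p = 0.976). Without replicate 1 of 129S2SvPAs anti-GBM GN the 129S2SvPAs change was 0.58 and passed (adjusted p = 0.0151 in limma). Between strains Cd2ap was at 0.18 in anti-GBM GN and -0.16 in controls, and neither passed. Its other 2 probe sets, both dimmer, were higher in 129S2SvPAs than in C57BL6J, at 0.58 and 1.09 in anti-GBM GN and at 0.56 and 0.54 in controls. Of these differences only the 1.09 passed (adjusted p = 0.0452 in limma).

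Plce1 encodes phospholipase C epsilon, an enzyme of podocyte signalling whose loss causes nephrotic syndrome in humans. Signals were 5.51, 5.57 and 5.67 in 129S2SvPAs anti-GBM GN, against 6.35, 5.61 and 5.25 in 129S2SvPAs control. C57BL6J glomeruli gave 6.67, 5.61 and 6.13 in anti-GBM GN and 6.74, 7.40 and 6.77 in control. The 129S2SvPAs groups overlapped and the C57BL6J groups did not. Neither response passed, at -0.15 in 129S2SvPAs (95% interval -0.85 to 0.54, adjusted p = 0.809 in limma) and -0.83 in C57BL6J (95% interval -1.53 to -0.14, adjusted p = 0.152). Among controls Plce1 was 2.35-fold lower in 129S2SvPAs (-1.23, SE 0.31, adjusted p = 0.0359 in limma). That call was lost on leaving out, singly, any C57BL6J control, 129S2SvPAs control replicate 2 or 3, 129S2SvPAs anti-GBM GN replicate 2 or 3, or C57BL6J anti-GBM GN replicate 3. With each array left out the difference ran from -1.54 to -0.99 and the adjusted p from 0.0145 to 0.151. The call was also lost in 3 of 11 other settings. The adjusted p in limma was 0.0787 with no filter on low signals and 0.0899 in a fit of the compared groups alone. With the mean of proximal tubule markers as a covariate it was 0.172.

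Trpc6, a cation channel whose gain-of-function variants cause focal segmental glomerulosclerosis in humans, lay at the floor. Its 12 signals ran from 3.20 to 3.36 and 3.19 to 3.26 in 129S2SvPAs anti-GBM GN and control, and from 3.05 to 3.17 and 3.05 to 3.16 in C57BL6J anti-GBM GN and control. The 129S2SvPAs arrays stood above the C57BL6J arrays by no more than 0.14 on average, and no contrast passed (adjusted p = 0.417 to 0.982 in limma). At this signal a fall of the channel's transcript could not be detected.

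Thsd7a, a foot process protein and an antigen of human membranous nephropathy, differed most between control strains. It had 5.66, 5.96 and 6.41 in 129S2SvPAs anti-GBM GN, against 7.29, 6.79 and 6.62 in 129S2SvPAs control. In C57BL6J it had 7.94, 6.36 and 7.04 in anti-GBM GN, against 9.01, 9.18 and 8.66 in control. Nephritic and control arrays were apart in both strains, and the C57BL6J controls stood above all other arrays. The fall in C57BL6J was by 1.84 (SE 0.36, adjusted p = 0.0106 in limma). The 129S2SvPAs change was -0.89 (95% interval -1.67 to -0.11) with adjusted p = 0.106, or adjusted p = 0.0414 without C57BL6J anti-GBM GN replicate 1. The difference between responses was 0.95 (95% interval -0.16 to 2.06, adjusted p = 0.551 in limma).

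Among controls Thsd7a was 4.14-fold lower in 129S2SvPAs (-2.05, SE 0.36, adjusted p = 0.00491 in limma). Among nephritic mice it was at -1.10 (SE 0.36, adjusted p = 0.0905), which passed without C57BL6J anti-GBM GN replicate 2 (-1.48, adjusted p = 0.0272 in limma). A second, dimmer probe set gave -1.03 between controls (adjusted p = 0.0519 in limma) and -0.80 for the C57BL6J response (adjusted p = 0.146).

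Ptpro encodes the receptor tyrosine phosphatase GLEPP1 of the apical podocyte membrane. It had 5.88, 6.30 and 6.38 in 129S2SvPAs anti-GBM GN, against 6.68, 6.33 and 5.75 in 129S2SvPAs control. In C57BL6J the signals were 8.14, 6.76 and 7.58 in anti-GBM GN and 8.14, 8.36 and 7.51 in control. Treatment groups overlapped in both strains, whereas every 129S2SvPAs array was below every C57BL6J array. The responses were -0.07 in 129S2SvPAs (95% interval -0.85 to 0.72, adjusted p = 0.942 in limma) and -0.51 in C57BL6J (95% interval -1.30 to 0.28, adjusted p = 0.471).

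Between strains Ptpro was 2.47-fold lower in 129S2SvPAs in anti-GBM GN (-1.31, SE 0.36, adjusted p = 0.0474 in limma) and 3.36-fold lower in controls (-1.75, SE 0.36, adjusted p = 0.0125). The control difference was lost without C57BL6J control replicate 2 (-1.57, adjusted p = 0.0618 in limma). The nephritic one was lost on leaving out, singly, any 129S2SvPAs anti-GBM GN array, C57BL6J anti-GBM GN replicate 1 or 3, C57BL6J control replicate 1 or 2, or 129S2SvPAs control replicate 2, with values of -1.40 to -0.98 and adjusted p up to 0.164. It was also lost in 6 of 12 other settings. Among these the adjusted p in limma was 0.06 with the replicate number as a block and 0.104 with no filter on low signals. It was 0.101 in a fit of the compared groups alone.

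A second Ptpro probe set behaved differently. It read 2.60, 2.82 and 2.98 in 129S2SvPAs anti-GBM GN, against 3.15, 2.80 and 2.54 in 129S2SvPAs control, all at the floor. It read 3.03, 3.05 and 3.24 in C57BL6J anti-GBM GN, against 3.98, 5.12 and 4.13 in C57BL6J control. On this probe set only the C57BL6J controls stood clearly above the floor, and the C57BL6J response passed (-1.30, SE 0.27, adjusted p = 0.0188 in limma over probe sets). Between nephritic strains it was at -0.31 (adjusted p = 0.568 in limma), and the mean of both Ptpro probe sets was at -0.81 (adjusted p = 0.104), so that this call rests on the brighter probe set. Between control strains the second probe set was lower in 129S2SvPAs too (-1.58, adjusted p = 0.00526 in limma).

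Podxl, podocalyxin, is carried by podocytes and by glomerular endothelium. Its log2 signal was 12.05, 11.73 and 11.42 in 129S2SvPAs anti-GBM GN, against 10.64, 10.96 and 10.07 in 129S2SvPAs control. C57BL6J glomeruli had 12.32, 12.20 and 12.19 in anti-GBM GN and 11.67, 12.13 and 11.73 in control. The groups were apart in both strains, and the 129S2SvPAs controls were below all other arrays. Podxl rose by 1.18 in 129S2SvPAs (SE 0.23, adjusted p = 0.00464 in limma), while in C57BL6J the change was 0.39 (95% interval -0.11 to 0.90, adjusted p = 0.372). The difference between the responses was 0.78 (SE 0.32), with an unadjusted p of 0.0347 and adjusted p = 0.412 in limma. Between strains Podxl was 2.44-fold lower in 129S2SvPAs controls (-1.29, SE 0.23, adjusted p = 0.00583 in limma) and at -0.50 in anti-GBM GN (adjusted p = 0.236). The calls on Podxl were kept with each array left out. Its second probe set, far dimmer, gave 0.80 for the 129S2SvPAs response (adjusted p = 0.21 in limma) and -0.88 between controls (adjusted p = 0.248).

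Robo2, a receptor for SLIT ligands that in mice is tied to nephrin through the adaptor Nck, was near the floor. Its signals were 3.63 to 3.71 in 129S2SvPAs anti-GBM GN and 3.66 to 3.76 in 129S2SvPAs control, against 3.51 to 3.85 in C57BL6J anti-GBM GN and 3.47 to 3.59 in C57BL6J control. Only the control strains did not overlap, by 0.20 on average (95% interval -0.04 to 0.43, adjusted p = 0.32 in limma), and no contrast passed.

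**Figure D2:**
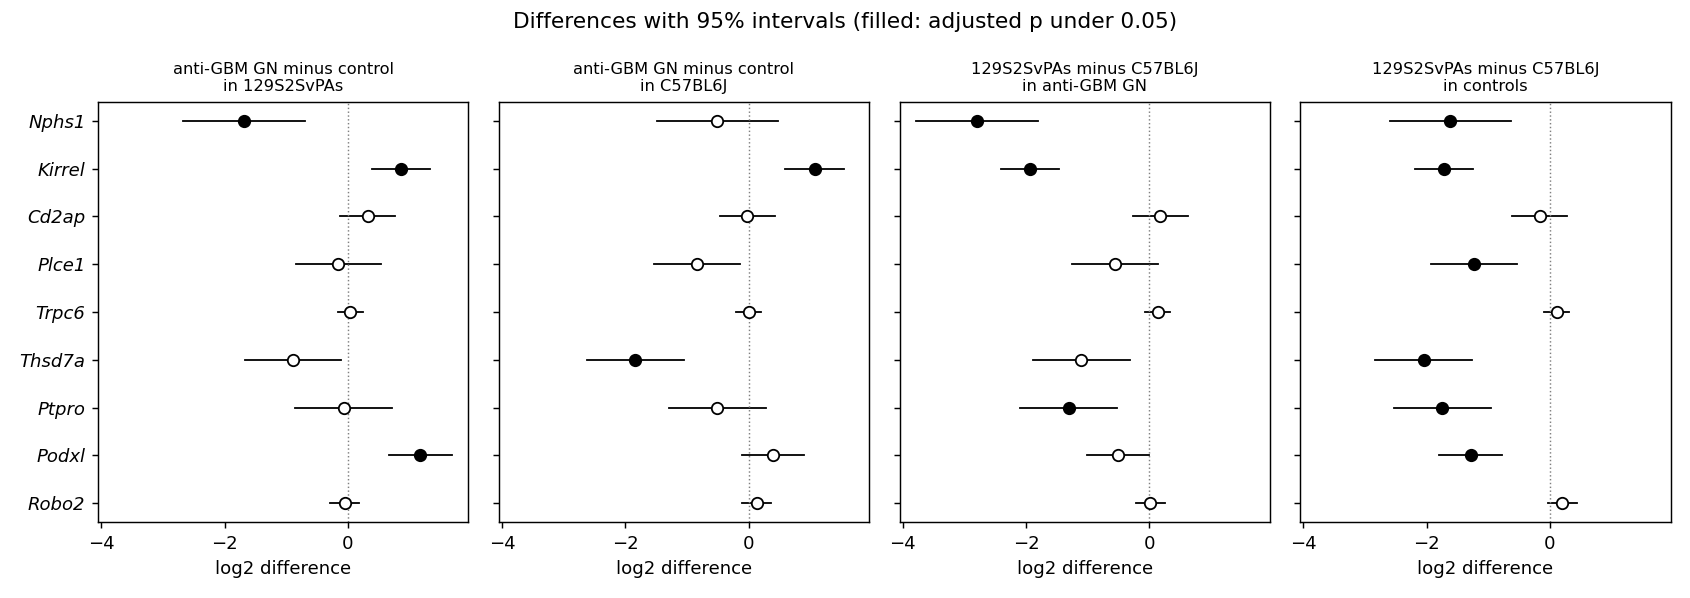
Log2 differences of the 9 genes with 95% intervals from limma, in 4 panels for anti-GBM GN minus control in 129S2SvPAs and in C57BL6J and for 129S2SvPAs minus C57BL6J in anti-GBM GN and in controls. Filled points passed an adjusted p of 0.05, and the panel of control strains shows 6 of them, all below 0.

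Counted together, 3 of the 9 genes passed in the 129S2SvPAs response, 2 higher and 1 lower, where 20.3% of all tested genes did, 10.6% higher and 9.77% lower. In C57BL6J 2 of 9 passed, 1 higher and 1 lower, against 7.09% of all tested genes, 4.78% higher and 2.31% lower. The median change was -0.05 in 129S2SvPAs and -0.02 in C57BL6J, beside 0.00 and -0.03 over all tested genes. Groups did not overlap for 4 genes in 129S2SvPAs and for 4 in C57BL6J, where 32.5% and 29.1% of all tested genes did not. In the difference of the responses 0 of 9 passed in limma, beside 0.562% of all tested genes (1 of 9 at an unadjusted p under 0.05).

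Between nephritic strains 3 of 9 passed, all lower in 129S2SvPAs, beside 8.38% of all tested genes in either direction, 4.89% lower and 3.49% higher. Between control strains 6 of 9 passed, all lower in 129S2SvPAs, beside 8.43% in either direction, 5.11% lower and 3.32% higher. The median difference was -0.55 in anti-GBM GN and -1.29 in controls, beside 0.03 and -0.00 over all tested genes. Arrays did not overlap for 5 genes between nephritic strains and for 8 between controls, beside 27.9% and 31.6%. The control count was 3 without C57BL6J control replicate 2, where the count over all tested genes was 503 in place of 1005. It was 5 with the replicate number as a block, without Nphs1, and 3 (Kirrel, Podxl and Thsd7a) when the mean of proximal tubule markers was a covariate. Over all tested genes the block gave 1095 calls and the covariate 568. The C57BL6J response count was 1 without C57BL6J anti-GBM GN replicate 1, control replicate 1 or control replicate 3, each of which removed Kirrel, and over all tested genes 512, 482 and 495 passed there in place of 845.

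Other markers moved with the strain as well. Of 10 podocyte markers outside the set, 5 were lower in 129S2SvPAs controls and none higher, with a median of -1.47. Wt1, the transcription factor that maintains podocytes, was at -1.93 (SE 0.39, adjusted p = 0.0124 in limma) and Synpo, which encodes the actin-associated protein synaptopodin and is also among the partners below, at -1.47 (SE 0.31, adjusted p = 0.0146). Of 12 endothelial markers 4 were lower, with a median of -1.20, and of 7 leukocyte markers tested 2 were lower. Of 17 proximal tubule markers 3 were higher and 1 lower, of 11 markers of later nephron segments 2 were higher, of 6 parietal epithelial markers 2 were higher, of 8 mesangial and smooth muscle markers 2 were lower, and of 5 platelet markers 0 passed in limma. The summed log2 signal of the podocyte list ran from 64.7 to 72.9 in 129S2SvPAs controls and from 77.6 to 83.6 in C57BL6J controls. That of the endothelial list ran from 91.7 to 109 and from 110 to 118. Between nephritic strains 3 of the 10 podocyte markers were lower in 129S2SvPAs and none higher, with a median of -0.745. Over all tested genes 4.89% were lower there. Lower markers in other lists numbered 1 of 12 endothelial, 2 of 7 leukocyte, 2 of 17 proximal tubule, 1 of 11 later segment and 2 of 5 platelet. Higher ones numbered 2 of 6 parietal epithelial and 1 of 11 later segment, and no mesangial or smooth muscle marker passed. None of the defining markers was at 0, and the part of these lists in the strain differences was not tested.

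The same lists were counted for anti-GBM GN. In 129S2SvPAs 1 podocyte marker rose and 2 fell among 10, with a median of -0.08, and in C57BL6J 1 fell. Synpo rose in 129S2SvPAs by 1.06 (SE 0.31, adjusted p = 0.0329 in limma), and Wt1 was at -0.62 (SE 0.39, adjusted p = 0.314). The podocyte markers Ddn and Cdkn1c were lower there, averaging 3.24 and 6.48 in anti-GBM GN, against 6.90 and 7.82 in control. In C57BL6J Ddn averaged 5.92 in anti-GBM GN and 8.42 in control, and Cdkn1c 9.34 and 9.29. Endothelial markers rose in 5 of 12 and fell in 1 in 129S2SvPAs, and 1 rose and 1 fell in C57BL6J. Mesangial and smooth muscle markers rose in 4 of 8 in 129S2SvPAs and in 3 of 8 in C57BL6J. Parietal epithelial markers rose in 1 of 6 in each strain, and their centred means did not overlap between treatments, at 0.49 to 0.72 in 129S2SvPAs anti-GBM GN and -0.30 to 0.29 in control, and at -0.07 to 0.10 in C57BL6J anti-GBM GN and -0.59 to -0.42 in control. Platelet markers rose in 2 of 5 in 129S2SvPAs and in 3 of 5 in C57BL6J, and 0 of 7 leukocyte markers passed in either strain in limma. Markers of later nephron segments rose in 1 and fell in 5 of 11 in 129S2SvPAs, and fell in 1 of 11 in C57BL6J. Of 17 proximal tubule markers 7 fell and none rose in 129S2SvPAs, with a summed log2 signal of 198 to 200 in anti-GBM GN and 212 to 215 in control. In C57BL6J 2 of the 17 fell, with sums of 201 to 208 and 207 to 212. With the mean of these tubule markers as a covariate the 129S2SvPAs changes were -2.64 for Nphs1 (adjusted p = 0.277 in limma), 1.41 for Podxl (adjusted p = 0.273) and 0.08 for Kirrel (adjusted p = 0.958), and none passed. In C57BL6J Kirrel was at 0.81 under it (adjusted p = 0.104 in limma). In 129S2SvPAs the covariate does not overlap between anti-GBM GN and control, and in C57BL6J it does.

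**Figure D3:**
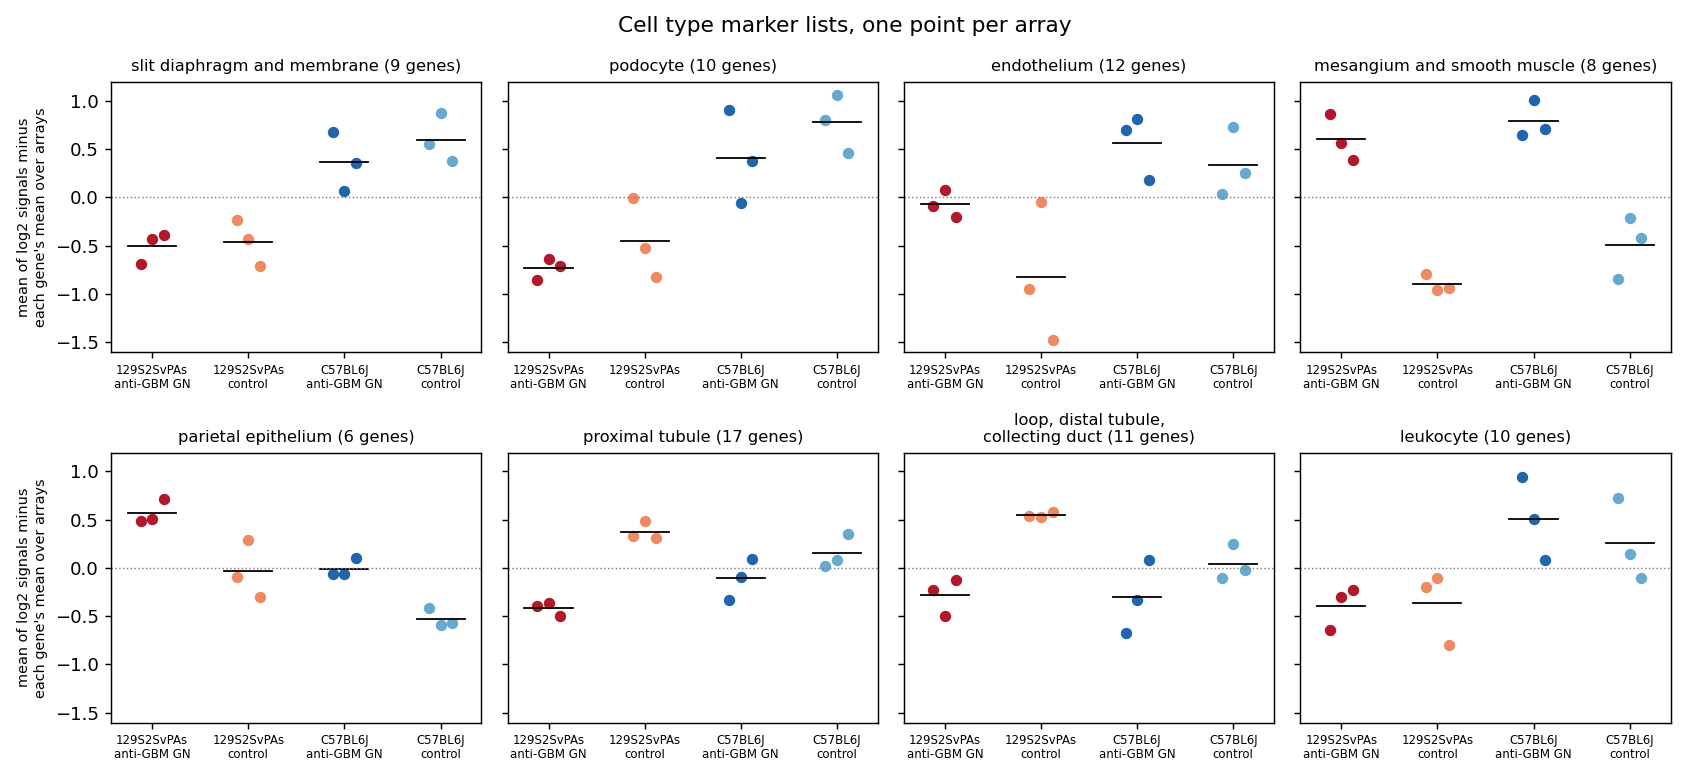
Mean of each list's log2 signals, after subtracting the gene's own 12-array mean, with 1 point per array and a line at the group mean, for the 9 slit diaphragm and membrane genes and 7 marker lists. The podocyte panel has 129S2SvPAs controls at -0.82 to -0.00 and C57BL6J controls at 0.46 to 1.07, and the proximal tubule panel has 129S2SvPAs anti-GBM GN at -0.50 to -0.36 and its controls at 0.31 to 0.48.

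The genes did not vary as 1 block. Over the 12 arrays Nphs1, Plce1, Thsd7a and Ptpro varied together, with Pearson's r from 0.809 (Nphs1 and Plce1) to 0.927 (Plce1 and Thsd7a). Kirrel and Podxl formed another pair at 0.862, and Podxl had 0.250 with Nphs1 and 0.179 with Thsd7a. With each group's mean removed, the first 4 genes kept r from 0.738 to 0.928, and Kirrel and Podxl had 0.479. These correlations describe 12 arrays that share strain and treatment, and the pairs were picked after their values were seen.

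**Figure D4:**
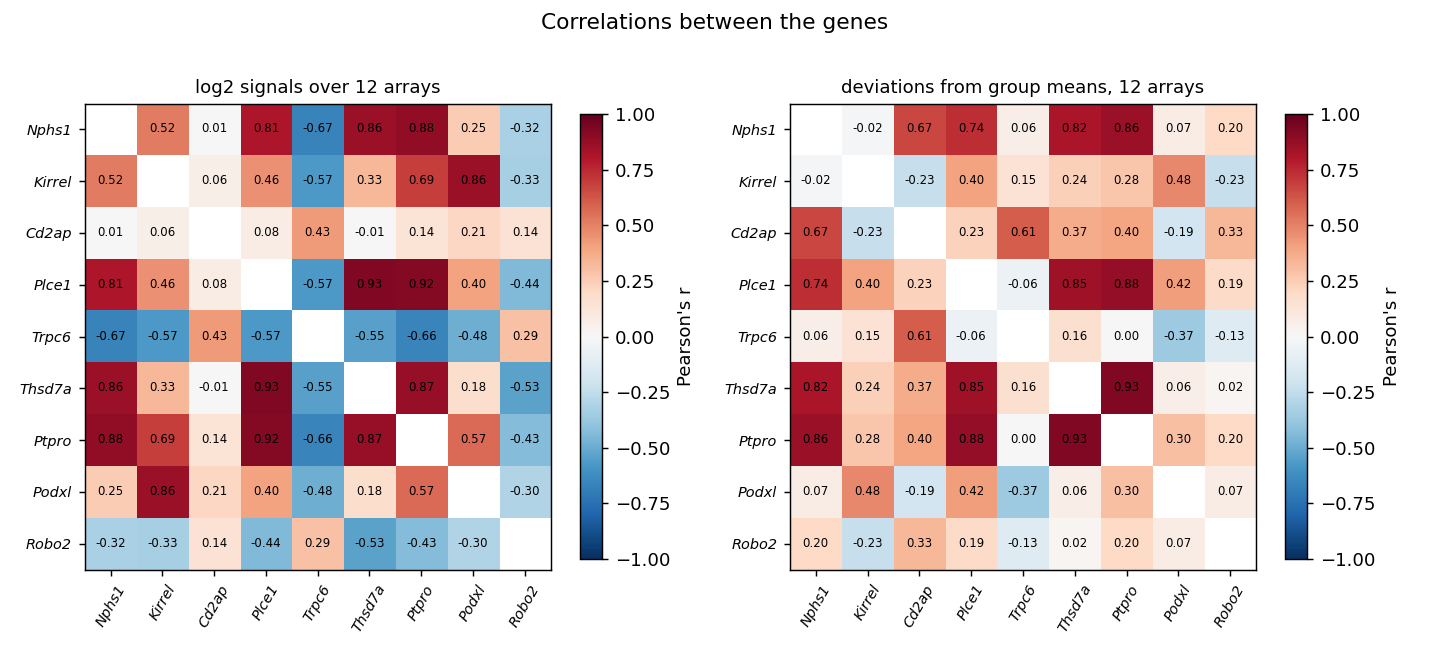
Pearson's r between the 9 genes over 12 arrays, on log2 signals at left and on deviations from the 4 group means at right, with colours from -1 to 1. Nphs1, Plce1, Thsd7a and Ptpro are at 0.738 or more with one another in both panels.

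Among other tested genes, the pattern most like that of Nphs1 over the 12 arrays was that of Pard3b, a polarity protein gene (r = 0.965), followed by Samd9l (0.963) and Bpnt1 (0.961). For Ptpro it was Foxc2, a podocyte transcription factor (0.985), for Thsd7a Mgme1 (0.965), for Plce1 Hs3st6 (0.937), for Podxl Dusp3 (0.975), for Kirrel Uhmk1 (0.960) and for Cd2ap Bzw1 (0.960). The best matches of Robo2 (Rps6kb2, 0.863) and of Trpc6 (Klra16, 0.983) rest on signals near the floor. Each is the highest among the tested genes that are not in the set of 9.

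A wider list of 40 partners of the slit diaphragm was examined beside these genes, of which 37 had a probe set and 33 were tested. In 129S2SvPAs 12 partners rose and 2 fell, and in C57BL6J 7 rose and 0 fell, beside 20.3% and 7.09% of all tested genes called. Medians were 0.27 and 0.11, beside 0.00 and -0.03 over all tested genes. In both strains 5 rose, Itga3, Itgb1, Slc9a3r2, Dag1 and Iqgap1, of 12 rises in 129S2SvPAs and 7 in C57BL6J. How many of all tested genes rose in both strains was not counted, so this overlap cannot be called particular to the partners. The difference of the responses passed for 0 of the 33 in limma (4 at an unadjusted p under 0.05).

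The 129S2SvPAs count was 8 without that strain's anti-GBM GN replicate 2, 9, 7 and 8 without its control replicates 1, 2 and 3, and 0 with the tubule covariate. Over all tested genes those omissions gave 1768, 1880, 2091 and 2048 calls and the covariate 12, in place of 2424. The C57BL6J count was 3 and 2 without that strain's anti-GBM GN replicates 1 and 2, 3 and 2 without its control replicates 1 and 3, and 2 with the covariate. Over all tested genes those omissions gave 512, 407, 482 and 495 calls and the covariate 478, in place of 845.

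Receptors for the basement membrane were among the partners that rose. Itga3, whose product pairs with that of Itgb1 in the podocyte's laminin receptor, averaged 7.49 ± 0.32 in 129S2SvPAs anti-GBM GN and 6.05 ± 0.22 in control, and 7.94 ± 0.07 in C57BL6J anti-GBM GN and 6.65 ± 0.16 in control (SD, n = 3 each). It rose by 1.44 (SE 0.17, adjusted p = 0.000233 in limma) and by 1.29 (SE 0.17, adjusted p = 0.00113). Itgb1 rose by 1.48 (SE 0.31) and 1.23 (SE 0.31) in 129S2SvPAs and C57BL6J. Dag1, dystroglycan, rose by 0.45 (SE 0.13) and 0.73 (SE 0.13), all of these past the threshold in limma.

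Scaffolds and signalling partners followed. Slc9a3r2, the NHERF2 scaffold that ties podocalyxin to ezrin, rose by 1.70 in 129S2SvPAs (SE 0.27, adjusted p = 0.00153 in limma) and by 1.24 in C57BL6J (SE 0.27, adjusted p = 0.0202). Iqgap1, a scaffold that binds nephrin, rose by 0.90 (SE 0.18) and 0.69 (SE 0.18). In 129S2SvPAs the slit cadherin gene Fat1 rose by 1.21 (SE 0.19, adjusted p = 0.00119 in limma), reaching 7.61 ± 0.03 in anti-GBM GN, against 6.40 ± 0.43 in control. Nck2, an adaptor that binds phosphorylated nephrin, rose there by 0.59 (SE 0.11, adjusted p = 0.00322). In C57BL6J these 2 genes were at 0.24 and 0.07 and did not pass. Srgap1, which acts downstream of ROBO receptors, rose in C57BL6J by 0.91 (SE 0.20, adjusted p = 0.0202 in limma) and was at 0.34 in 129S2SvPAs. Many of these genes are also used by endothelial and mesangial cells, whose marker counts in each strain are given above, and their part in these rises was not tested.

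**Figure D5:**
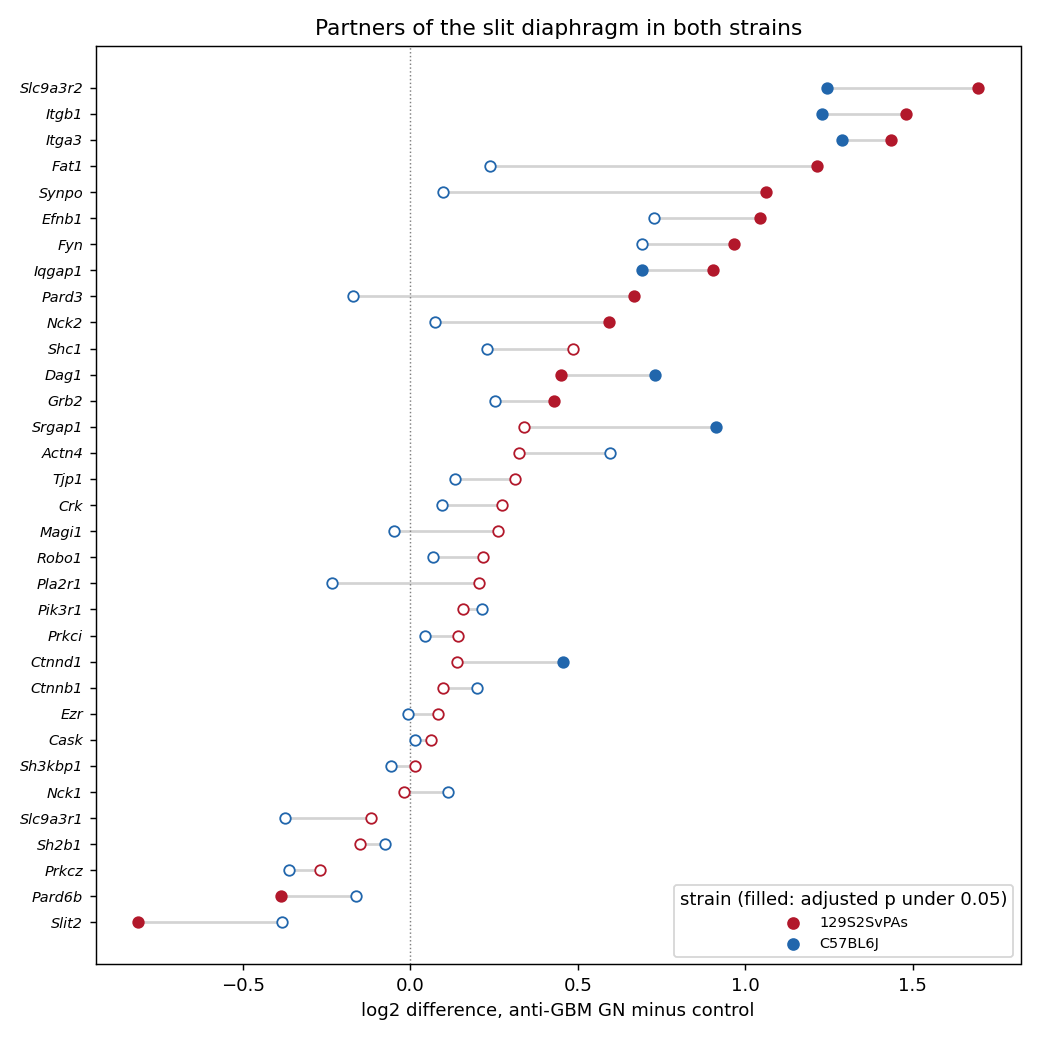
Log2 difference between anti-GBM GN and control for the 33 tested partners, with 129S2SvPAs in red and C57BL6J in blue, ordered by the 129S2SvPAs value. Filled points passed an adjusted p of 0.05, 14 in 129S2SvPAs and 7 in C57BL6J, and the 5 rows with both points filled lie at positive values.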

How the data were processed

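The authors deposited log2 probe set signals for 45037 probe sets on 12 Affymetrix mouse arrays, 1.12 to 15.02, the log2 scale being read from the values. MAS5 and GCRMA are named without a version per the submitters' processing notes, which do not say which made the values; background settings, genome build, scan dates and batches are not given in the sources used here. Of the probe sets 34945 carried 1 gene symbol in the platform annotation, and a gene was tested when its brightest probe set exceeded the table median of 3.03 on at least 3 arrays. Group means were fitted over all 12 arrays in R 4.3.3 with limma 3.58.1, with contrasts, empirical Bayes moderation (10.71 degrees of freedom) and Benjamini-Hochberg adjustment over 11920 genes in each of 5 contrasts, called at an adjusted p under 0.05. Intervals are 95% limits of the moderated fit, not adjusted for the number of genes. The number of arrays limits the precision, and the p-values measure the spread between mice. Scripts were tested on simulated data. Named genes were all members, the 5 called partners of lowest p per response, defining markers, and per member the most correlated gene (3 for Nphs1). The podocyte markers Ddn and Cdkn1c were named in addition, after their values were seen. Members and lists were chosen with earlier results of these data known. The fit has no block for the replicate number, which the labels tie to no shared batch. Deviations from group means of all 3 same-numbered pairs correlated above 0.1 between control strains (0.239 to 0.284) and between treatments in C57BL6J (0.208 to 0.330), and in no other comparison made, so blocked values are given where they change a call. Alternatives covered scaling, filter, probe set, prior, weights, samples, block, covariate, call rule and left-out arrays. Figures used Python 3.11.15 and matplotlib 3.10.9.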

Additional observations from a re-analysis of the deposited data

How the results depend on the processing

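Across 1010 recomputed member differences 945 stayed on their side of the threshold with no called direction changed, 57 lost a call and 8 gained one. Sign changed in 27, none called before or after. The 1010 cover 45 results, most of them not called at the outset, so the 945 do not measure how stable the calls were. The calls for Nphs1 and Plce1 between controls and for Ptpro between nephritic strains were each lost in 8 of 12 single omissions. The strain calls for Kirrel and the nephritic strain call for Nphs1 were kept in every setting run, each on 1 probe set above the table median. With the mean of proximal tubule markers added as a covariate 3 members passed between control strains, 0 in the 129S2SvPAs response and 1 in the C57BL6J response, and 0 partners in 129S2SvPAs and 2 in C57BL6J. With each array left out the members passing numbered 3 to 6 between control strains, 2 to 4 between nephritic strains, 2 to 4 in the 129S2SvPAs response and 1 to 2 in the C57BL6J response, against 6, 3, 3 and 2 with all arrays; partners numbered 7 to 14 in 129S2SvPAs and 2 to 9 in C57BL6J, against 14 and 7. Over all tested genes these omissions gave 503 to 1288, 612 to 1117, 1768 to 2649 and 407 to 1141 calls in that order of comparisons, against 1005, 999, 2424 and 845. Partners passing in 129S2SvPAs numbered 6 at an absolute log2 difference of at least 1, 9 with no filter and 7 in a fit of the groups compared. Over all genes 1108, 2050 and 1415 passed there, in place of 2424. In C57BL6J partners numbered 3 at that difference, 3 with the mean of all probe sets and 12 with array weights. Over all genes 467, 842 and 2022 passed there, in place of 845. The cause of these moves was not tested, except that no filter adds genes to the adjustment and left-out arrays remove samples. Deviations from group means correlated above 0.1 in 11 of 18 same-numbered and 9 of 36 other pairs, and 5 of 12 arrays correlated best with their own number. With the replicate block 2 member calls were lost, Nphs1 between controls (-1.62, adjusted p = 0.0773 in limma) and Ptpro between nephritic strains (-1.31, adjusted p = 0.06), leaving 5 and 2 members; no other member call changed. Over all genes 568 passed between control strains with the covariate against 1005, 12 against 2424 in the 129S2SvPAs response and 478 against 845 in the C57BL6J response. With the block 1095 and 984 of all genes passed between control and nephritic strains, against 1005 and 999. Signals near the floor limit Trpc6, Robo2, Kirrel in 129S2SvPAs controls and the dimmer probe sets.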
